A study of Mus musculus with 19 samples.

Results

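The genes described here are 9 enzymes of cholesterol synthesis: Hmgcs1, Idi1, Fdps, Fdft1, Sqle, Lss, Cyp51, Sc5d and Dhcr7. They were chosen by name, and they are 9 of the 18193 genes that a probe set of the array names alone. A probe set is a group of short probes for 1 transcript. The 9 genes have 24 probe sets, and the one with the highest mean log2 signal over all arrays stands for its gene below, as its main probe set. All 9 passed the filter on dim signal, as did 13320 genes in all. RNA came from wild-type mouse embryos of the ICR strain, measured on 19 Affymetrix arrays. The lens series holds lens at 3 stages a day apart, E10.5 to E12.5 (days after the plug was found, counted from 0.5; 3 arrays each) and whole body labelled E10.5 to E12.5 (4 arrays). In the tooth series are tooth germ at E13.5 (3 arrays) and whole body labelled E11.5 to E13.5 (3 arrays). No group carries a transgene or a treatment. The labels do not say whether replicates are separate embryos, pools or repeat hybridisations, so p-values describe array-to-array spread alone, and precision is limited by how few arrays there are. The labelled purpose was to find genes enriched in lens or tooth against the whole body.

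Cholesterol is made from acetyl-CoA by way of mevalonate, the isoprenoids, squalene and lanosterol. When sterols are scarce, transcription factors of the SREBP family are released from the endoplasmic reticulum and raise the enzymes of this pathway together. The lens has no blood supply once it is mature, and the membranes of its fibre cells are unusually rich in cholesterol. Inherited defects of lanosterol synthase, of sterol C5-desaturase and of 7-dehydrocholesterol reductase can be accompanied by cataract.

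In the order of the pathway, Hmgcs1 (Entrez gene 208715; chromosome 13, 119690351 to 119708260) encodes cytosolic HMG-CoA synthase, which makes the precursor of mevalonate. Idi1 (Entrez gene 319554; chromosome 13, 8885606 to 8892396) encodes the isomerase of the first isoprenoid unit, and Fdps (Entrez gene 110196; chromosome 3, 89093588 to 89101967) the synthase of farnesyl diphosphate. Fdft1 (Entrez gene 14137; chromosome 14, 63145150 to 63181687) encodes squalene synthase, the first step committed to sterols. Sqle (Entrez gene 20775; chromosome 15, 59315092 to 59331193) encodes squalene epoxidase, and Lss (Entrez gene 16987; chromosome 10, 76531565 to 76557139) lanosterol synthase, which closes the sterol rings. Cyp51 (Entrez gene 13121; chromosome 5, 4080674 to 4104697) encodes lanosterol demethylase. Sc5d (Entrez gene 235293; chromosome 9, 42251592 to 42264300) encodes sterol C5-desaturase, and Dhcr7 (Entrez gene 13360; chromosome 7, 143823167 to 143848410) the reductase of 7-dehydrocholesterol. Positions are those of RefSeq on GRCm38.p6.

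The sequence before the transcription start is shown for 5 of the genes, because Hmgcs1 and Sc5d stood below the body in the lens, Dhcr7 above it, and Idi1 and Cyp51 near it. Each line gives 250 bases, 5′ to 3′ on the strand of the gene and ending at the base before its first annotated start. Sequences are from RefSeq, build GRCm38.p6, where 6 of the 9 genes matched, and Fdps, Fdft1 and Sqle are named only. Capitals mark 3 motifs searched on both strands, so that a match on the other strand reads as its reverse complement (ATTGG or CCGCCC, for instance): CACNCCAC, a core of sterol regulatory elements, CCAAT, the box bound by NF-Y, and GGGCGG, the GC box. No motif shares a base with another in these windows.
Hmgcs1, chr13:119690101-119690350, plus strand: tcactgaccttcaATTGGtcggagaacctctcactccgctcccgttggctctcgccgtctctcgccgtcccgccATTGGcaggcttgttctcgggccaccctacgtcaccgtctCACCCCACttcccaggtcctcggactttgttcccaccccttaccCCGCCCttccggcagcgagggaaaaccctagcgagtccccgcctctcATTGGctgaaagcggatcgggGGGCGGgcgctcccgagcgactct
Idi1, chr13:8885356-8885605, plus strand: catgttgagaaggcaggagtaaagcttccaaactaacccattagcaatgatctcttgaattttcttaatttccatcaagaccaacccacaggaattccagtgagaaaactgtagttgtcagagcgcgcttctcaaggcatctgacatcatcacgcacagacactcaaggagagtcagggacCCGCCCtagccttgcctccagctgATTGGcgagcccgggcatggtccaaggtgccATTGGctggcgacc
Cyp51, chr5:4104698-4104947, minus strand: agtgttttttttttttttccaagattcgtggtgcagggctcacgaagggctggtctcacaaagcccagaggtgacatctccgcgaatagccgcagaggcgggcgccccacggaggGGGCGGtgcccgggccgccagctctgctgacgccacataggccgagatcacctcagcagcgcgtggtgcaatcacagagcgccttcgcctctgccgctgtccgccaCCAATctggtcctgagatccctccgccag
Sc5d, chr9:42264301-42264550, minus strand: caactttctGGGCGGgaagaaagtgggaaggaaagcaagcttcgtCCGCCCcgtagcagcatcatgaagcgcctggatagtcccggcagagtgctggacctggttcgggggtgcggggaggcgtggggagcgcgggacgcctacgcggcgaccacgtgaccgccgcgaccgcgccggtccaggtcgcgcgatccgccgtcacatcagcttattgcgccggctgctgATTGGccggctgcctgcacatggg
Dhcr7, chr7:143822917-143823166, plus strand: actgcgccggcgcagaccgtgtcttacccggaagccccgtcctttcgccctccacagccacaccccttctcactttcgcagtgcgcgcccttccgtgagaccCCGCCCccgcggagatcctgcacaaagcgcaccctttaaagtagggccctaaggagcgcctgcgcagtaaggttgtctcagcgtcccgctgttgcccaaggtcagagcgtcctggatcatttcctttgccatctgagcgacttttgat

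The CACNCCAC core was in the Hmgcs1 window alone, 136 bases before the start, and 5.29% of all 32851 promoter windows of the same length held it. A looser form, CACNNCAC, chosen after the sequences were seen, was in 13.5% of all windows, in Hmgcs1 at the same place and, at its second annotated start, in Dhcr7. CCAAT was in 33.8% of all windows and in 6 of the 8 windows of the 6 genes. Each gene had it in at least 1 window, with 3 copies in Hmgcs1, 2 in Idi1 and 1 each in Lss, Cyp51 and Sc5d. Dhcr7 had CCAAT only at the third of its 3 annotated starts, in 2 copies. GGGCGG was in 32.7% of all windows and in 7 of the 8 windows here, again in at least 1 of each of the 6 genes. A match describes letters and not a binding site, and these data hold no measure of binding.

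Lens E11.5 replicate 1 stood apart: over the genes tested its mean correlation with the other arrays of its group was 0.951, where that of the other 18 arrays was 0.969 or more. Its signal was the lowest of the 13 lens-series arrays for 6 of the 9 genes (Hmgcs1, Idi1, Fdft1, Sqle, Cyp51 and Sc5d) and the highest for Dhcr7. Its signal of the bacterial hybridisation controls, 12.66 on the log2 scale, was also the highest of the 19 arrays. Lens E10.5 replicate 3 carried more signal of lens genes than the other arrays of its stage (mean log2 of 7 lens genes 10.56, against 9.78 and 9.71), and results that change without these 2 arrays are given both ways. The 3′ minus 5′ log2 difference of the Gapdh control probe sets, a sign of RNA or label length, was -0.10 to 0.05 in the lens series and 2.82 to 4.08 in the tooth series. Levels are therefore set against each other within a series. In the tooth series that difference also separated the groups, 2.82 to 3.13 in tooth germ and 3.84 to 4.08 in its body. The same difference of the actin control probe sets separated them the other way, at 4.78 to 5.05 in tooth germ and 4.22 to 4.47 in its body. The part of these differences in the tooth results was not tested. All 7 lens genes tested were higher in the lens than in the body at each stage, and 4 of 6 tooth germ genes tested were higher in tooth germ.

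**Figure D1:**
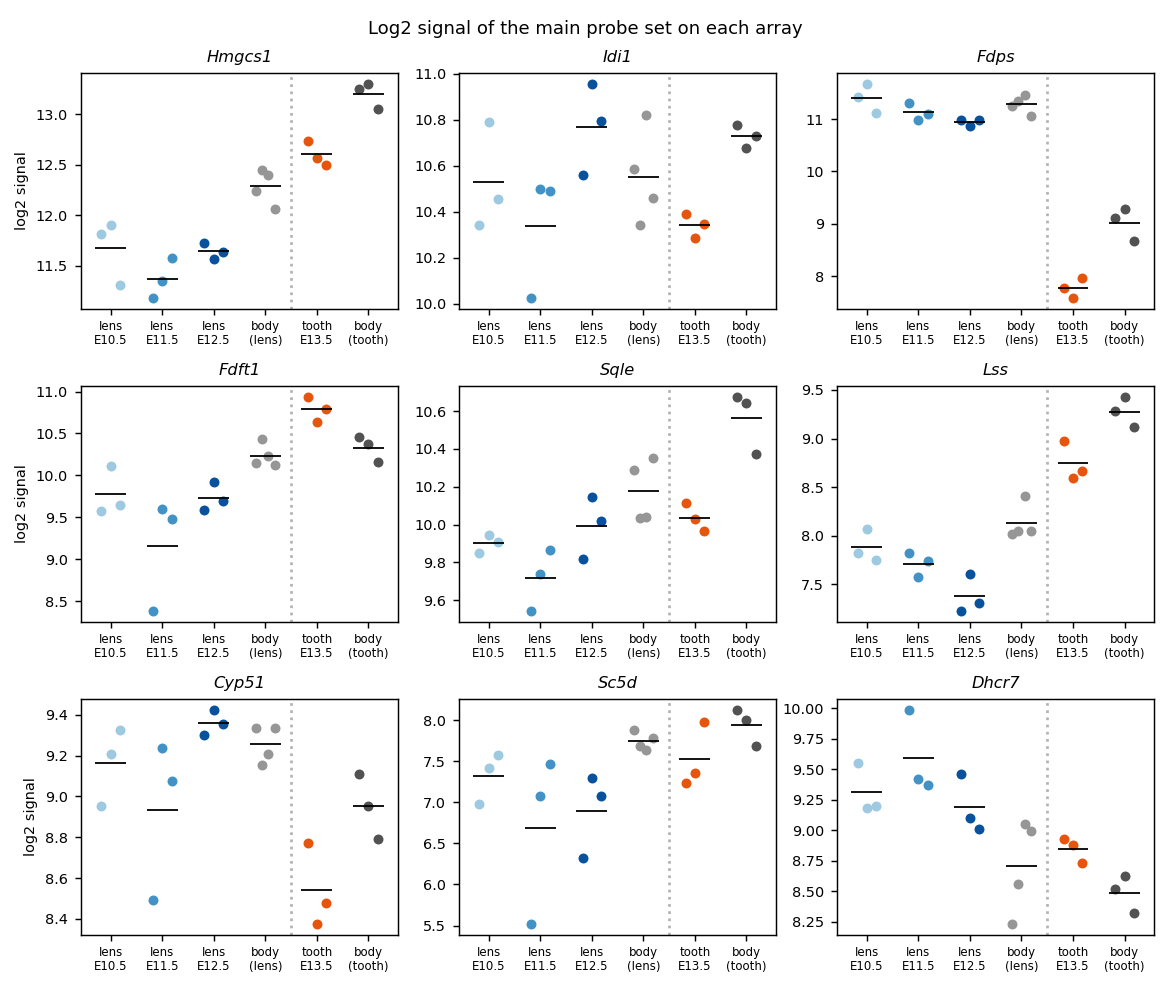
Log2 signal of the main probe set of each gene on each of the 19 arrays. Points are arrays, black lines are group means, colours are the 6 groups and the dotted line parts the lens series from the tooth series; each panel has its own vertical axis, which does not start at 0. The Hmgcs1 points of all 9 lens arrays lie below the 4 body arrays, those of Dhcr7 at E10.5 and E11.5 lie above them, and E11.5 replicate 1 is the low point for Fdft1, at 8.38, and Sc5d, at 5.52.

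Against the body, the lens had less Hmgcs1 transcript at every stage and more Dhcr7 at E10.5 and E11.5. Sc5d was lower at E11.5 and E12.5, Fdft1 and Sqle at E11.5, and Lss at E11.5 and E12.5 by its main probe set. For Lss and Fdft1, and for Hmgcs1 at E12.5, the main probe set alone passed. At E12.5 the other Lss sets gave 0.31 and 0.13, above the body, so no direction can be given for Lss there. The counts that follow are of main probe sets. Idi1, Fdps and Cyp51 did not pass the test at any stage. At E10.5, 1 of 9 was higher and 1 lower, where 13.5% and 19.1% of all genes tested were. The arrays of 1 gene lay wholly above and those of 4 wholly below the body, against 17.7% and 22.7% of all genes. At E11.5, 1 was higher and 5 were lower, against 14.7% and 22.3% of all genes, and 1 lay above and 5 below without overlap, against 15.4% and 22.9%. At E12.5, 0 were higher and 3 lower by limma, against 16.6% and 26.7% (at an unadjusted p under 0.05, Dhcr7 alone was higher). There 0 lay above and 5 below without overlap, against 19.6% and 29.5%. The median difference of the 9 genes was -0.25, -0.42 and -0.33 at the 3 stages, where that of all genes tested was -0.01, -0.03 and -0.05. The medians of the members depended on the probe set rule, most at E12.5. By the mean of a gene's probe sets they were -0.14, -0.35 and -0.10, against 0.030, 0.018 and -0.003 for all genes. By the probe set of second highest mean, with 8 members tested, they were -0.22, -0.47 and -0.03, against 0.016, 0.028 and 0.001. All 3 comparisons use the same 4 body arrays and are not independent of each other. In a bulk sample, fewer cells that express a gene and less RNA in each cell cannot be told apart.

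**Figure D2:**
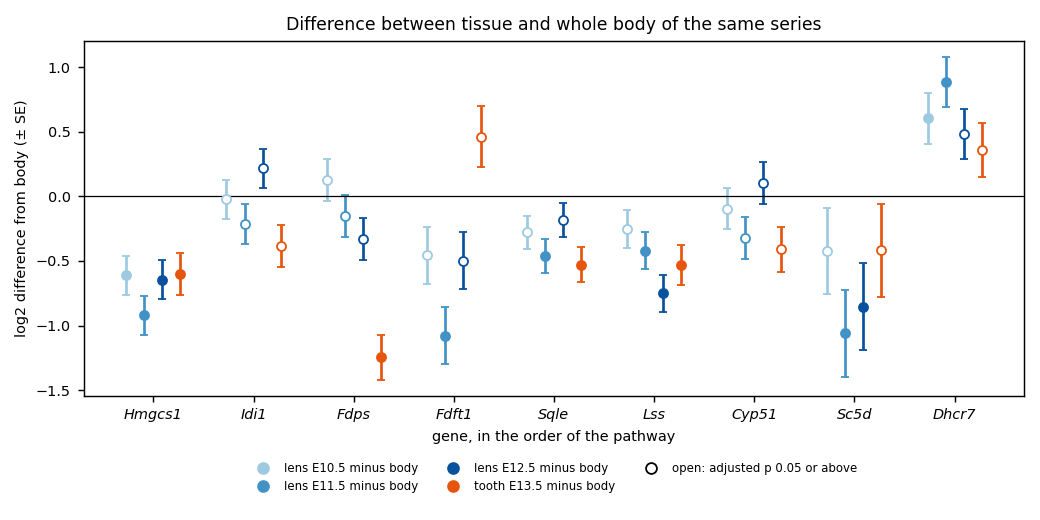
Log2 difference of each tissue from the whole body of its own series, with the standard error of the limma fit, for the 9 genes in pathway order. Filled points have an adjusted p under 0.05 and open points do not; all 4 Hmgcs1 points are filled and lie between -0.92 and -0.60, and the Dhcr7 points are the only set of 4 that all lie above 0.

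The body arrays hold tissues that the lens lacks, so markers of these were measured beside the enzymes. The mean log2 signal of 7 liver genes was 9.95 to 10.36 in the body and 4.75 to 5.42 in the lens, and all 7 were lower in the lens at each stage. All 7 neuron genes were lower as well, at 9.86 to 10.30 in the body and 4.55 to 4.84 in the lens. Of 7 mesenchyme genes 6, 5 and 6 were lower at the 3 stages, with medians of -3.66, -2.31 and -2.89, and of 5 erythroid genes 5, 3 and 4. Of 6 macrophage genes 5 were higher at E10.5 and 3 on each later day. Of 4 pigment cell genes tested, 3 were higher at each stage. The 6 surface ectoderm genes were all higher at E10.5, while 4 and 5 were lower on the later days, and all 6 fell from E10.5, with medians of -3.12 to E11.5 and -4.01 to E12.5. The liver is a main site of cholesterol synthesis, and the part of these tissues in the differences was not tested. All 8 genes of cell division were lower than the body in the E12.5 lens, and their mean log2 had medians of 11.44, 10.91 and 9.91 over the 3 lens stages, against 11.38 in the body, and their part was not tested either.

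The mevalonate step passed the test at each stage. Hmgcs1 read 11.82, 11.91 and 11.31 on the E10.5 lens arrays, 11.18, 11.35 and 11.58 at E11.5, 11.73, 11.56 and 11.64 at E12.5, and 12.24, 12.45, 12.40 and 12.06 in the body. Every lens array lay below every body array. The difference was -0.61 ± 0.15 (SE; adjusted p = 0.00368) at E10.5. A day later it was -0.92 ± 0.15 (adjusted p = 7.05e-05), followed by -0.64 ± 0.15 (adjusted p = 0.00172) at E12.5, or 0.655, 0.529 and 0.640 of the body signal. It has 4 tested probe sets, and all 4 were below the body at each stage. In a fit over 27580 probe sets, 2 of these 4 passed the test on each of the earlier days and 1 on the last. The probe set of second highest mean gave -0.46, -0.54 and -0.21 and passed at none of the stages.

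The isoprenoid steps passed the test against the body at no stage. Idi1 averaged 10.53 ± 0.23 (SD, n = 3) at E10.5, 10.34 ± 0.27 at E11.5, 10.77 ± 0.20 at E12.5 and 10.55 ± 0.21 in the body (n = 4), and each lens group overlapped the body. Its differences were -0.02, -0.21 and 0.22, with adjusted p of 0.271 or more. Its second probe set gave -0.17, -0.87 and 0.22, with E11.5 replicate 1 at 5.77 and the other 2 arrays of that stage at 8.67 and 8.91. Fdps ranged from 11.12 to 11.67, 10.98 to 11.31 and 10.88 to 10.99 at the 3 stages and from 11.05 to 11.46 in the body. Its E12.5 arrays lay below the body without overlap, but the difference of -0.33 ± 0.16 did not pass (adjusted p = 0.11).

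The squalene steps, Fdft1 and Sqle, had their lowest main-set means at E11.5, but neither gene passed the test in any step between lens stages. Fdft1 read 9.57, 10.11 and 9.65 at E10.5, 8.38, 9.60 and 9.49 at E11.5, 9.59, 9.92 and 9.70 at E12.5 and 10.15, 10.43, 10.23 and 10.13 in the body. By this main set all lens arrays lay below all body arrays, by a margin at E10.5 of only 10.11 against 10.13. The difference of -1.08 ± 0.22 at E11.5 passed the test (adjusted p = 0.000656), and it was -0.69 ± 0.16 (adjusted p = 0.00228) without E11.5 replicate 1. At E10.5 it was -0.46 ± 0.22 and at E12.5 -0.50 ± 0.22, and neither passed (adjusted p = 0.128 and 0.0748). The other 3 Fdft1 probe sets gave -0.27, 0.10 and -0.14 at E11.5 and none of them passed. The first was brighter than the main set in the lens, at means of 9.94, 9.69 and 9.98 against 9.78, 9.16 and 9.74. In the body it was dimmer, at 9.96 against 10.24. At E10.5 these 3 sets gave -0.02, -0.02 and -0.07 and at E12.5 0.03, 0.48 and 0.07, and again none passed. Sqle has 1 probe set and read 9.54, 9.74 and 9.87 at E11.5, against 10.29, 10.03, 10.04 and 10.35 in the body, with no overlap. Its difference was -0.46 ± 0.13 (adjusted p = 0.00828) at E11.5, and -0.38 (adjusted p = 0.0525) without the 2 lens arrays that stand apart. At E10.5, where the arrays read 9.85 to 9.94, it was -0.28, and at E12.5, where they read 9.82 to 10.15, it was -0.18, and neither passed.

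Lss went down with stage by its main probe set and up by its second. The main set read 7.82, 8.07 and 7.76 at E10.5, 7.82, 7.58 and 7.74 at E11.5, 7.23, 7.61 and 7.31 at E12.5 and 8.02, 8.05, 8.41 and 8.05 in the body. The lens groups at E11.5 and E12.5 lay below the body, and E10.5 overlapped it. Differences from the body were -0.25 ± 0.14 (adjusted p = 0.208), -0.42 ± 0.14 (adjusted p = 0.0286) and -0.75 ± 0.14 (adjusted p = 0.000293). The E11.5 difference passed under 10 of 20 alternatives. It was -0.33 and did not pass (adjusted p = 0.0936) without body replicate 3, the highest of the 4, and -0.35 and -0.43 without E11.5 replicate 2 or 3 (adjusted p = 0.108 and 0.0558), while without body replicate 3 that at E12.5 was -0.66 (adjusted p = 0.00135). The second probe set read 5.94, 6.59 and 6.41, then 5.72, 6.71 and 6.76, then 6.83, 7.52 and 7.19 in the lens, and 7.12, 6.85, 6.76 and 6.74 in the body. It put the E12.5 lens among or above the body arrays, with a difference of 0.31 ± 0.27 that did not pass (adjusted p = 0.389). Between E10.5 and E12.5 the main set fell by 0.50 (SE 0.16) and the second rose by 0.87 (SE 0.29), and both passed in the fit over probe sets, with adjusted p of 0.0307 and 0.0384. The fall by the main set did not pass without E10.5 replicate 1 or 2 or without E12.5 replicate 1 or 3. With replicate number as a block it did not pass either, and 8 of 19 alternatives kept the call. The third set read 4.74 to 5.23 throughout the lens series, near the 95th percentile of 4.71 of control probe sets without a target, and gave 0.13 ± 0.16 for this step. At E10.5 and E11.5 the second set gave -0.55 and -0.47 against the body, the same direction as the main set, and did not pass. The sets therefore differed in direction at E12.5 and between stages, where no direction can be given for Lss.

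Among the late steps, Sc5d passed the test against the body at E11.5 and E12.5 and Cyp51 at no stage, by the main probe sets. These genes were not tested against each other. Cyp51 read 8.95 to 9.33, 8.49 to 9.24 and 9.30 to 9.43 at the 3 stages and 9.15 to 9.34 in the body, and overlapped it at each stage, with differences of -0.10, -0.32 and 0.10 and adjusted p of 0.128 or more. The third Cyp51 probe set was lower at E10.5 (-0.45; adjusted p = 0.0459) and rose by 0.53 from there to E12.5 (adjusted p = 0.0392). The brighter second set went the other way, by 0.17 and -0.26, and passed in neither. Sc5d read 6.98, 7.41 and 7.58 at E10.5, 5.52, 7.08 and 7.47 at E11.5, 6.32, 7.29 and 7.08 at E12.5 and 7.88, 7.69, 7.64 and 7.79 in the body. All 9 lens arrays lay below all 4 body arrays. Its difference was -0.42 ± 0.33 at E10.5 (adjusted p = 0.379), -1.06 ± 0.33 at E11.5 (adjusted p = 0.0175) and -0.85 ± 0.33 at E12.5 (adjusted p = 0.0462). Without E11.5 replicate 1 the E11.5 difference was -0.48 ± 0.25 and did not pass (adjusted p = 0.158), and without E12.5 replicate 1 that of E12.5 was -0.56 (adjusted p = 0.243). The E12.5 difference also did not pass without E12.5 replicate 3 or without any 1 of the 4 body arrays (-0.94 to -0.81; adjusted p = 0.0617 to 0.0908). It did not pass after median centring (-0.84; adjusted p = 0.0641), quantile normalization (-0.77; adjusted p = 0.0644) or without the filter on dim signal (adjusted p = 0.0564), so 11 of 20 alternatives kept the call, and in the fit over probe sets its adjusted p was 0.0526. The second Sc5d probe set was less scattered and gave -0.66 ± 0.23, -0.94 ± 0.23 and -0.94 ± 0.23, with adjusted p of 0.0346, 0.00379 and 0.00297. All 3 Sc5d probe sets were below the body at each stage.

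Dhcr7, the last enzyme of the route that runs through 7-dehydrocholesterol, was the only one of the 9 called higher than the body. Its 1 probe set read 9.55, 9.19 and 9.20 at E10.5, 9.99, 9.42 and 9.37 at E11.5, 9.46, 9.10 and 9.01 at E12.5 and 8.23, 8.56, 9.05 and 8.99 in the body. The body arrays were themselves spread, from 8.23 to 9.05, and E12.5 overlapped them. Differences were 0.60 ± 0.20 (adjusted p = 0.0225), 0.88 ± 0.20 (adjusted p = 0.00134) and 0.48 ± 0.20 (adjusted p = 0.0535), or 1.52, 1.84 and 1.40 times the body signal. The E10.5 difference did not pass without body replicate 1 (0.44; adjusted p = 0.0895), without body replicate 2 (0.55; adjusted p = 0.0588) or without E10.5 replicate 1 (0.48; adjusted p = 0.124), while that of E11.5 passed under each of 20 alternatives. At E12.5 the difference passed without body replicate 3 (0.59; adjusted p = 0.0242), without body replicate 4 (0.58; adjusted p = 0.0318) and without the 2 lens arrays that stand apart (0.48; adjusted p = 0.032).

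The signal of the bacterial controls parted the lens-series arrays into a high set of 6 and a low set of 7, each with arrays of all 4 groups. Within the high and the low set, Hmgcs1 differed from the body by -0.56 and -0.84 at E10.5, -1.24 and -0.69 a day later, and -0.70 and -0.55 at E12.5, and each passed the test. At each stage 1 of the 2 sets holds a single lens array, replicate 3 in the low set at E10.5 and replicate 1 in the high set on the later days, and the fit assumes that it varies like the remaining groups. The high set at E11.5 is thus the array that stood apart. In the sets with 2 lens arrays, Fdft1 (-0.60), Sqle (-0.52), Sc5d (-0.56) and Dhcr7 (0.78) passed at E11.5, and Sc5d (-0.65) at E12.5. Sqle at E11.5 did not pass in the high set (-0.49; adjusted p = 0.0986), and Lss at E11.5 passed in neither (-0.41 and -0.38; adjusted p = 0.224 and 0.0758). Dhcr7 at E10.5 was 0.56 and 0.59 in the 2 sets and passed in neither.

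Between the lens stages 1 of the 9 genes was called in 1 of 3 steps. From E10.5 to E11.5 limma called none, where 1.52% of all genes were higher and 2.74% lower, and at an unadjusted p under 0.05 Fdft1 alone was lower. The groups of all 9 overlapped, while 7.18% of all genes lay above and 10.3% below without overlap. From E11.5 to E12.5 limma again called none, against 3.02% higher and 3.45% lower of all genes, and at an unadjusted p under 0.05 3 were higher and 1 lower. Idi1 (0.43 ± 0.16) and Cyp51 (0.43 ± 0.17) lay above without overlap at E12.5, as did 7.90% of all genes, and none lay below, against 11.2%. Arrays of these stages with the same replicate number deviated together from their group means, with correlations of 0.40 to 0.64 in the 3 pairs. In all 3 pairs Hmgcs1, Idi1, Fdft1, Sqle and Cyp51 read higher at E12.5 and Fdps and Dhcr7 lower. The pair of replicate 1 holds the E11.5 array that stood apart. How many of all genes kept 1 direction in all 3 pairs was not counted, so nothing particular to the 9 genes is read from these pairs. In a fit of these 6 arrays with the pairing, limma still called none, with the lowest adjusted p, 0.112, for Idi1. Over both days only Lss was called, lower by its main probe set as given above, where 8.91% of all genes were higher and 13.2% lower. Without overlap, Lss and Fdps lay below and none above, against 21.5% and 16.9% of all genes. Fdps lay lower at E12.5 without overlap, by -0.46 ± 0.17 (adjusted p = 0.0672), and by -0.60 (adjusted p = 0.0253) without E10.5 replicate 3.

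In tooth germ, 4 enzymes were lower than in the body of the tooth series and none was higher, where 25.3% and 16.6% of all genes tested were. At an unadjusted p under 0.05, limma gave 6 lower and 0 higher. The largest difference was that of Fdps, which read 7.78, 7.58 and 7.97 in tooth germ and 9.11, 9.27 and 8.67 in the body. The groups did not overlap, and the difference was -1.24 ± 0.17 (adjusted p = 1.33e-05), or 0.422 of the body signal. Hmgcs1 read 12.74, 12.57 and 12.50 against 13.25, 13.30 and 13.05 and was lower by -0.60 ± 0.16 (adjusted p = 0.00573). Its 4 tested probe sets all passed in the same direction, from -0.60 to -1.77. Sqle read 10.11, 10.03 and 9.96 against 10.68, 10.64 and 10.37, a difference of -0.53 ± 0.14 (adjusted p = 0.00474). Lss was lower by its main probe set, at 8.97, 8.59 and 8.67 against 9.28, 9.43 and 9.12 (-0.53 ± 0.15; adjusted p = 0.00969), and its other sets gave -0.17 and 0.25 and did not pass. None of these genes overlapped its body by the main set.

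The remaining 5 did not pass in tooth germ. Fdft1 read 10.94, 10.63 and 10.80 against 10.46, 10.37 and 10.16, above its body without overlap, with 0.46 ± 0.24 (adjusted p = 0.124). Its second probe set gave -0.30 ± 0.13. Dhcr7 read 8.93, 8.88 and 8.74 against 8.52, 8.63 and 8.32, again above without overlap, with 0.36 ± 0.21 (adjusted p = 0.179). Idi1 (-0.39 ± 0.16; adjusted p = 0.0653) and Cyp51 (-0.41 ± 0.17; adjusted p = 0.062) lay below without overlap. The third Cyp51 probe set gave -0.88 ± 0.18 and passed (adjusted p = 0.000659). Sc5d overlapped its body, with -0.42 ± 0.36. Without overlap, 6 of 9 genes lay below their body and 2 above, as did 31.7% and 24.4% of all genes tested. The median of the 9 differences was -0.42, and that of all genes was -0.04. Beside these values, the 7 liver genes were lower in tooth germ, as were the 7 neuron genes (mean log2 5.09 to 5.54 against 8.76 to 8.91 for liver). Of 6 macrophage genes 4 were lower and of 6 surface ectoderm genes 5 were higher. Their part was not tested. The bacterial control signal was 10.54 to 10.87 in tooth germ and 8.55 to 9.36 in its body. With that signal, array set and group cannot be told apart in this series.

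Whether the tissues differed in their distance from the body was tested directly, as the E12.5 lens difference minus the tooth germ difference. It passed for 3 of 9 genes, 2 of them higher, against 19.2% higher and 20.4% lower of all genes. Fdps was -0.33 in the lens and -1.24 in tooth germ (0.91 ± 0.24; adjusted p = 0.00486). Idi1 was 0.22 and -0.39 (0.60 ± 0.22; adjusted p = 0.0388), but passed under only 7 of 22 alternatives. Leaving out any 1 array other than E12.5 lens replicate 1 or lens-series body replicate 3 ended its call. Fdft1 was -0.50 and 0.46 (-0.96 ± 0.32; adjusted p = 0.0232), but its second probe set gave 0.32 and did not pass, and its call also ended without E12.5 lens replicate 1, tooth germ replicate 1 or tooth-series body replicate 3. For Hmgcs1 the differences were -0.64 and -0.60, and their difference of -0.04 ± 0.22 did not pass (adjusted p = 0.897), whereas the dimmest of its 4 tested sets gave 1.47 (adjusted p = 1.2e-05). The third Cyp51 set gave 0.97 (adjusted p = 0.0042) where the main one, at 0.51, did not pass. Every value of this comparison crosses the series, whose 3′ minus 5′ differences stand far apart as given above.

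The body arrays of the 2 series, labelled with overlapping stages, differed in 4 of the 9 genes by their main probe sets, where 31.8% of all genes were higher and 31.8% lower in the tooth series. Fdps was lower by -2.26 ± 0.16 (adjusted p = 9.27e-10), while Hmgcs1 (0.91 ± 0.15), Sqle (0.39 ± 0.13) and Lss (1.14 ± 0.14) were higher. The Sqle call ended without tooth-series body replicate 1 or 2. Hmgcs1 went the other way by its other 3 sets, at -0.95, -1.04 and -2.69. The second set of Lss gave -0.34 and did not pass, while the third gave 0.90 (adjusted p = 4.21e-05), as the main set did in direction. Fdps and Sqle have no other tested set. Cyp51 was -0.31 by the main set and 2.54 and 1.49 by the others. Fdft1 was 0.09 by the main set and did not pass, while its other sets gave -2.35, -1.04 and -0.62 and each passed. For Idi1 the main set gave 0.17 and did not pass, and the second gave 1.53 (adjusted p = 0.0154). Across the 6 genes with several tested probe sets, the median spread between sets of 1 gene was 1.96 here, against 0.56 for E12.5 lens minus body and 0.63 for tooth germ minus body. These values give no direction for Hmgcs1, Fdft1, Lss or Cyp51 between the bodies.

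**Figure D3:**
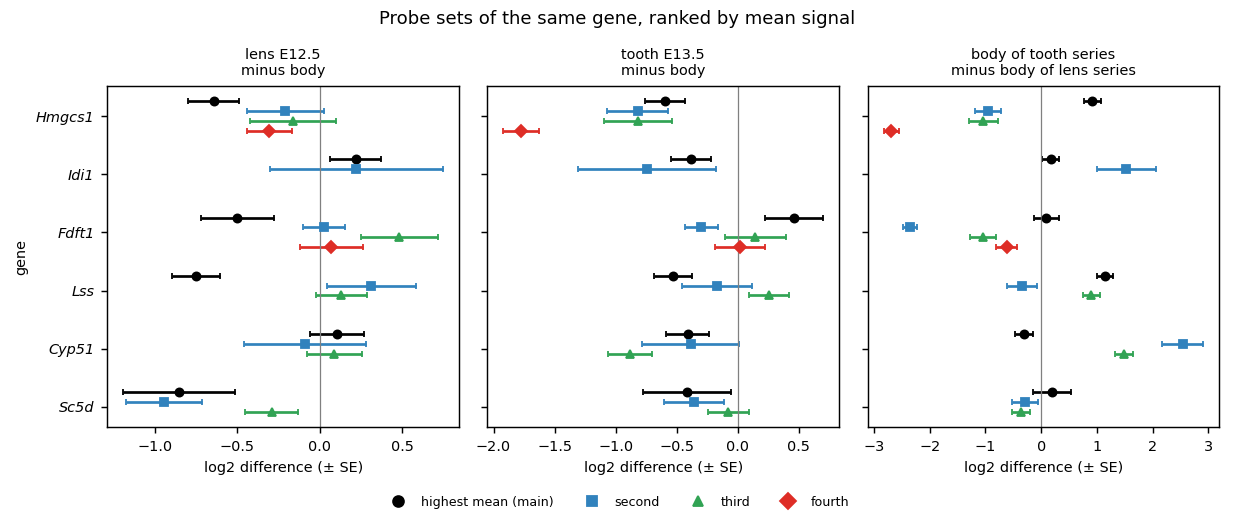
Log2 difference of every tested probe set of the 6 genes that have more than 1, with standard errors, ranked by mean signal within a gene, in 3 comparisons with separate horizontal axes. Probe sets of 1 gene lie close for Idi1 in the E12.5 lens, on both sides of 0 for Lss in the lens, and up to 3.61 apart for Hmgcs1 between the bodies.

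The counts of the pathway lists that follow stand beside 13.5%, 14.7% and 16.6% of all genes higher and 19.1%, 22.3% and 26.7% lower at the 3 lens stages, and 16.6% and 25.3% in tooth germ. The lists hold 4 to 9 tested genes each, and nothing particular to a list is read from its count. Among the other enzymes of the pathway, 9 of 12 listed genes were tested, and Hsd17b7 and Lbr were the ones that passed in the lens. Hsd17b7, a 3-ketosteroid reductase of the post-squalene route, was lower by -0.87 ± 0.21, -1.22 ± 0.21 and -0.98 ± 0.21 at the 3 stages (adjusted p = 0.00272, 0.000104 and 0.000664). Lbr, the lamin B receptor, which is also a sterol reductase, was lower by -0.57 at E11.5 and -1.19 at E12.5, and by -0.62 and -1.01 at E12.5 against E11.5 and E10.5. The counts were 0 higher and 1 lower at E10.5 and 0 and 2 at E11.5 and E12.5. In tooth germ Mvk, mevalonate kinase, was higher by 0.54 and Ebp, the sterol isomerase, lower by -0.67, and 7 of 9 did not pass.

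All 7 listed SREBP regulators were tested, and 1 was higher and none lower at each lens stage. Srebf1, whose products act mainly on fatty acid genes, was higher at E10.5 by 0.89 ± 0.21 (adjusted p = 0.00247). Srebf2, the SREBP gene linked most closely to cholesterol synthesis, was higher by 0.79 ± 0.19 at E11.5 (adjusted p = 0.00316) and 0.65 ± 0.19 at E12.5 (adjusted p = 0.0109). It stood at 9.35 to 9.97 and 9.36 to 9.67 in these lenses and 8.49 to 9.31 in the body. In tooth germ Srebf1 (1.62) and Mbtps1 (0.64), a protease that cuts the SREBP precursor, were higher and Insig2 (-0.66), which holds the precursor back, was lower. Transcript levels do not show how much of the factor is cut and active.

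Of 9 genes of cholesterol uptake and movement, 6 were tested. Vldlr, a lipoprotein receptor, was higher in the lens by 1.01, 0.91 and 1.63 and in tooth germ by 1.19, and rose by 0.72 from E11.5 to E12.5 and by 0.62 from E10.5 to E12.5. Stard4, a carrier of cholesterol between membranes that sterols hold down, was lower by -0.52, -0.91 and -0.99 in the lens and by -1.61 in tooth germ. Npc1, which moves cholesterol out of lysosomes, was higher at E10.5 (1.04) and E11.5 (0.66). The lysosomal lipase gene Lipa was lower at E10.5 (-0.75) and in tooth germ (-0.70), and the HDL receptor gene Scarb1 at E12.5 (-0.77). From E10.5 to E12.5 Npc1 fell by 0.73 and Scarb1 by 0.83 on the log2 scale. The counts higher and lower were 2 and 2, 2 and 1, and 1 and 2 at the 3 stages and 1 and 2 in tooth germ.

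Of 7 listed genes of cholesterol export and storage, 4 were tested, with 0 higher and 1, 2 and 2 lower at the 3 stages. Abca1, the transporter that loads cholesterol on apolipoproteins, was lower by -1.55, -1.53 and -1.13. Mylip, whose product breaks down lipoprotein receptors, was lower by -1.21 at E11.5 and -1.48 at E12.5, and differed from E10.5 by -0.88 and -1.15 on those days. In tooth germ Mylip (0.54) and the transporter gene Abcg1 (0.52) were higher and none was lower.

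Farnesyl diphosphate also feeds other products, and 8 of 9 listed genes of these were tested. In the lens 3, 1 and 2 were higher and 1, 2 and 1 lower at the 3 stages, and in tooth germ 0 were higher and 3 lower. Coq2, of ubiquinone synthesis, was higher by 0.83, 0.76 and 0.83 in the lens. Nus1, of dolichol synthesis, was lower by -0.94, -1.31 and -1.34 in the lens and by -0.67 in tooth germ. Pggt1b, a protein prenyltransferase subunit, was higher at E10.5 (0.41) and E12.5 (0.66) and lower in tooth germ (-0.38). Pdss2, of the ubiquinone side chain, was higher at E10.5 (0.42) and lower in tooth germ (-0.54), and Fnta, a farnesyltransferase subunit, was lower at E11.5 (-0.76).

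Fatty acid synthesis, which SREBP factors also control, was tested in all 9 listed genes. At the 3 lens stages 2, 4 and 2 were higher and 0, 1 and 2 lower, and in tooth germ 4 were higher and 1 lower. Elovl6, a fatty acid elongase, was higher by 1.07, 0.72 and 0.96 in the lens and 0.85 in tooth germ. Fasn, fatty acid synthase, was higher by 0.68 at E10.5, 0.54 at E11.5 and 0.78 in tooth germ. Scd1, a desaturase, was lower by -0.95 at E11.5 and -1.90 at E12.5, and differed by -0.70 and -0.95 in the successive steps and by -1.65 over both. Acaca, which makes malonyl-CoA, was higher by 1.36 in tooth germ. Scd2 was higher by 0.32 and 0.49 at E11.5 and E12.5 and 0.60 in tooth germ, Fads1 by 0.46 at E11.5, while Acly was lower by -0.53 at E12.5 and Fads1 by -0.57 in tooth germ.

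Within the lens series, Dhcr7 ran against the rest. Over the 13 lens-series arrays its correlation with the mean of the other 8 genes, each centred on its mean, was -0.83, and its correlation with each of them was below 0, from -0.04 with Fdps to -0.82 with Sqle and Fdft1. Without E11.5 replicate 1 the correlation was -0.75 with Fdft1, -0.74 with Sqle, -0.68 with Sc5d and -0.65 with Hmgcs1. It was weaker with Lss (-0.43), Cyp51 (-0.36), Fdps (-0.15) and Idi1 (-0.07). With that array kept, Cyp51 and Idi1 were at -0.64 and -0.40. Over all 19 arrays Dhcr7 correlated with the mean of the others at -0.73, but at 0.45 with Fdps and -0.04 with Cyp51, and Fdps itself correlated with the mean of the others at -0.53. Over the lens series the other genes correlated with the mean of the remaining 8 at 0.90 for Fdft1, 0.77 for Sc5d, 0.73 for Sqle, 0.72 for Hmgcs1, 0.52 for Cyp51, 0.51 for Lss, 0.47 for Idi1 and 0.21 for Fdps. Among the correlations of 13311 other genes with the mean of all 9, these lay at percentiles 99.7, 94.4, 91.4, 90.6, 72.9, 72.6, 69.6 and 55.1. That of Dhcr7 lay at percentile 0.72. Over all 36 pairs the median correlation was 0.38, with 23 above 0, and without E11.5 replicate 1 it was 0.17, with 20 above 0. Of the pathway genes outside the 9, Nsdhl, a sterol dehydrogenase, was among those most like their mean (0.90), and Srebf2 among those least like it (-0.80). Over all 19 arrays these values were 0.42 and -0.25. The arrays share groups and hybridisation, so these correlations are a description and have no p.

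**Figure D4:**
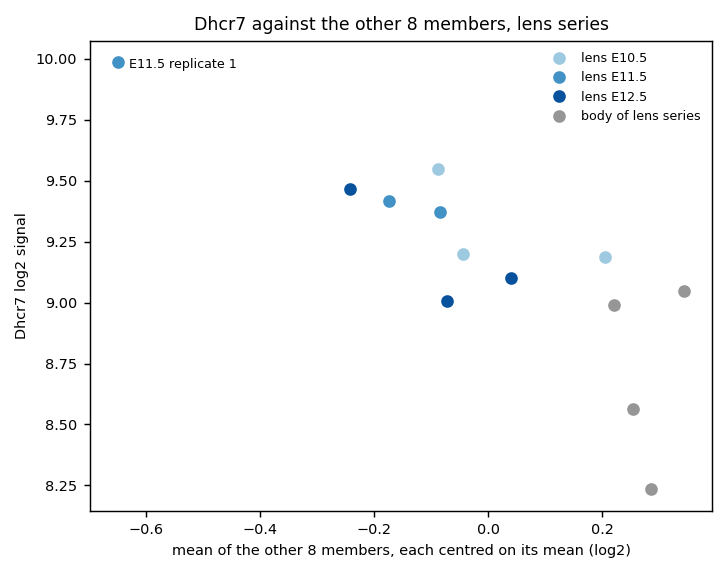
Dhcr7 log2 signal of each lens-series array against the mean of the other 8 genes on that array, each gene first centred on its mean over the 13 arrays. Points are arrays and colours are groups; E11.5 replicate 1 is at the upper left, with -0.65 on the horizontal and 9.99 on the vertical axis, and the 4 body arrays are at the right.

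Over all 19 arrays, the genes whose signal was most like the mean of the 9 were Zfp770 (r = 0.89), 4930428B01Rik and Ppp2r3c (0.87), Ptprg, Trappc2 and Zfp664 (0.86), Ttll1 and Zyg11b (0.85), and 1700123O20Rik and Ccn1 (0.84). The least like were Nectin1 and Hspg2 (-0.85) and Dyrk1b, Cit and Fbf1 (-0.83). Within the 13 lens-series arrays 4930428B01Rik (0.97) and Dip2a (0.96) were most like it and Hspg2 (-0.96) least. Over the 6 group means Taf2, Azi2 and Zfp770 (0.96) were most like it, and Ccl4 and Polr2a (-0.98) least. All of these rest on arrays that share group, series and 3′ to 5′ quality, and they say nothing of shared control.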

How the data were processed

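The authors deposited linear intensity values, 1 per probe set and array, made with RMA, per the submitters' processing notes, which also list affy 0.7 with no role. RMA corrects background, equalises array distributions and sums the probes of a set, so differences are relative to the other genes on the array. They ran from 5.4 to 25043.5, with array medians of 42.5 to 46.5. Log2 was taken and nothing else was normalized. No array pair shared more than 2.04% of its values. Of 45101 probe sets 34945 named 1 gene in the platform annotation, and 34741 of their Entrez IDs matched RefSeq. A gene was tested if its main probe set was brighter than 5.46 (log2), the overall median, on at least 3 arrays. limma 3.58.1 (R 4.3.3) fitted 1 mean per group over 19 arrays, with two-sided moderated tests and Benjamini-Hochberg adjustment over 13320 genes, called at 0.05; single probe sets were fitted over all 27580 that passed the same filter. Replicate numbers, which the labels give with no meaning, paired the arrays of E11.5 and E12.5 lens in all 3 pairs (correlations of deviations 0.40 to 0.64). For E10.5 with E11.5 lens and E10.5 with E12.5 lens, 2 of 3 pairs exceeded 0.1, and against the body at most 1 of 3. The scripts were tested on simulated data. Named are all 9 members, up to 4 called genes per pathway list and comparison (2 where none was called), and the 10 genes most and 5 least like the members' mean over all arrays. Some listed pathway genes are not reported here. Uncalled pathway genes of the steps between lens stages, and pathway genes of the 2 comparisons across series, are left out of the text. Members, lists and markers were chosen with earlier results of these data known. Alternatives were another scaling, filter, probe set rule, fit, block and array set; control probe sets, and probe sets of several genes or none, were left out.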

Additional observations from a re-analysis of the deposited data

Results flagged for a closer look

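Lss in body replicate 3 of the lens series, at 8.41, stood apart from the other 3 body arrays, at 8.02 to 8.05. It was 1 of 9 genes tested in the 1 group of 4 arrays, and chance gives about 1 such array in 20 groups. Without it the Lss difference at E11.5 did not pass the test, as the report gives.

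The distance from the body differed between E12.5 lens and tooth germ for Idi1 (0.60), Fdps (0.91) and Fdft1 (-0.96), each by a test of the difference itself. The 3′ minus 5′ differences of the 2 series, given in the report, move with this comparison, and their part was not tested.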

How the results depend on the processing

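Of 1521 values of single genes under alternatives, 1348 kept their direction and their side of the threshold, 70 lost and 36 gained a call, 60 changed sign with no call to lose and 7 with a call reversed. By the probe set of second highest mean, Lss at E12.5 minus body became 0.31, Lss at E12.5 minus E10.5 became 0.87, the Fdft1 lens minus tooth difference 0.32, and between the bodies Hmgcs1 -0.95 and Lss -0.34. By the mean of a gene's probe sets, Lss at E12.5 minus E10.5 was 0.17 and Hmgcs1 between the bodies -0.77. Counts of called members moved as follows. At E10.5 minus body, 0 instead of 1 were higher within the high or the low control signal set, and 2 instead of 1 were lower after quantile normalization or with only the groups compared, and 0 by the mean of probe sets. At E11.5, 2 instead of 5 were lower by the second probe set, and 3 with only the groups compared or without the 2 lens arrays that stand apart. At E12.5, 1 instead of 0 was higher (Dhcr7) after median centring or quantile normalization, with the stricter filter, the mean of probe sets, a trend, the replicate block or the control signal block, and without the 2 arrays, and 1 instead of 3 was lower by the mean or the second set. In the high control signal set 2 instead of 0 were lower from E10.5 to E11.5, and by the mean of probe sets 1 was higher from E11.5 to E12.5. From E10.5 to E12.5, 1 was higher by the second set, and 0 instead of 1 was lower after quantile normalization, by the mean or the second set, with only the groups compared, with the replicate block, and in either control signal set, and 2 with a trend or without the 2 arrays. In tooth germ 1 was higher after quantile normalization or with only the groups compared, and 2 instead of 4 lower by the second set. For lens minus tooth, 1 instead of 2 was higher after quantile normalization or with the replicate block, and 0 by the mean or the second set, which also gave 0 instead of 1 lower. Between the bodies 3 and 2 instead of 1 were lower by the mean and the second set. Leaving out single arrays gave 0 to 1 higher at E10.5 and at E12.5 minus body, 0 to 2 lower from E10.5 to E12.5, and for lens minus tooth 1 to 2 higher and 0 to 1 lower. Same-numbered arrays correlated above 0.1 in 8 of 21 pairs, from -0.53 to 0.64, and 17 of 42 best matches had the same number. Of 9 pairs of lens stages 7 did, and for E11.5 and E12.5 all 3, where the replicate block changed no call of the 9 genes. For E10.5 with E11.5 and for E10.5 with E12.5, 2 of 3 pairs were above 0.1. In the comparisons with the body at most 1 of 3 pairs was. Quantile normalization moved the tooth germ calls of all genes from 2214 higher and 3370 lower to 2935 and 2982, and the median between the bodies by 0.11. The cause of these shifts was not tested. Leaving out the 2 lens arrays, the block over the 6 arrays of E11.5 and E12.5, the likeness over 13 arrays and the looser motif were chosen after seeing the data. Signal near background limits the third Lss probe set, and 3 or 4 arrays a group limit all tests.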
